A study of Mus musculus with 16 samples.

Results

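Complement components were followed in inguinal white adipose tissue (iWAT) of mice built to make more hyaluronan or more of an enzyme that degrades it. The set holds 9 genes of the classical pathway and its convertases, C1qa, C1qb, C1qc, C1ra, C1s1, C2, C3, C4b and Serping1, picked by gene name from the 54532 genes of the deposited expression table. These 9 genes were selected on expression values of the same libraries, so their differences between groups are given as a description and not as a test. Counts of these genes under a p-value threshold are likewise only a description, and nothing is read from them. The libraries were 16 bulk RNA-seq libraries of male mice aged 8 to 10 weeks, 4 in each of the groups Has2_WT, Has2_TG, PH20_WT and PH20_TG. Has2_TG mice (Apn-Has2) overexpressed the hyaluronan synthase Has2 and PH20_TG mice (Apn-PH20) overexpressed Spam1, which encodes the hyaluronidase PH20, and in both the adiponectin promoter drove the doxycycline-dependent activator rtTA, so that the transgene was switched on in adipocytes. Has2_WT and PH20_WT were the littermate controls of each study, carried Apn-rtTA alone, and like the transgenic mice ate chow with 200 mg/kg doxycycline for 5 days before harvest.

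The classical complement pathway begins when C1q, a complex of the chains A, B and C encoded by C1qa, C1qb and C1qc, binds immune complexes or dying cells. The proteases C1r and C1s then cleave C4 and C2, whose fragments form the convertase that cleaves C3, and the fragments of C3 coat targets and recruit phagocytes. Serping1 encodes the C1 inhibitor, which inactivates C1r and C1s. In adipose tissue, C1q is a known product of macrophages, C1r, C1s, C3 and C4 are made by stromal cells and adipocytes, and adipocytes are the main source of factor D (Cfd, adipsin), the protease of the alternative pathway.

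The genes lay in a few groups along the genome (GRCm38). C1qa (ENSMUSG00000036887, chromosome 4, 136895917 to 136898803), C1qc (ENSMUSG00000036896, 136889804 to 136893065) and C1qb (ENSMUSG00000036905, 136880129 to 136886187) stood side by side on the minus strand within 18675 bases, with 0 other annotated genes in between. C1ra (ENSMUSG00000055172, chromosome 6, 124512405 to 124523443, plus strand) and C1s1 (ENSMUSG00000038521, 124530345 to 124542359, minus strand) faced each other with their 3′ ends, within 29955 bases. C4b (ENSMUSG00000073418, chromosome 17, 34728380 to 34743882) and C2 (ENSMUSG00000024371, 34862604 to 34898265) shared a stretch of 169886 bases in the major histocompatibility region with 16 other genes. C3 (ENSMUSG00000024164) lay elsewhere on chromosome 17, from 57203970 to 57228136, and Serping1 (ENSMUSG00000023224) on chromosome 2, from 84765387 to 84775444. All 9 are protein coding.

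Upstream sequences are shown for genes whose values moved together across libraries (C1qb with C1qc, and C1s1) and for the most abundant member, C3. They were read from RefSeq on GRCm38.p6, where 5 of the 9 genes had an entry (C1qb, C1qc, C1ra, C1s1 and C3) of 250 bases before the start and 50 after it, and are written 5′ to 3′ on the gene's own strand. Capitals mark a match, on either strand, to a PU.1 motif (GAGGAAGT; PU.1 is a transcription factor of macrophages) or a C/EBP motif (TTNNGCAA; C/EBP factors act in adipocytes and macrophages). The stretches are chr4:136886201-136886450 for C1qb, chr4:136893066-136893164 for C1qc, chr6:124542360-124542609 for C1s1 and chr17:57228157-57228216 for C3, all on the minus strand and outside the deposited gene; that of C3 is cut to 60 bases around its match.
C1qb: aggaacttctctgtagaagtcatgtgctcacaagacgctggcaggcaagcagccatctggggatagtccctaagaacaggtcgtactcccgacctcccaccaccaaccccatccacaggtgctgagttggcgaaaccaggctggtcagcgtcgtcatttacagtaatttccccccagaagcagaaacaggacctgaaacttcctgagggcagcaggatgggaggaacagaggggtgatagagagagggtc
C1qc: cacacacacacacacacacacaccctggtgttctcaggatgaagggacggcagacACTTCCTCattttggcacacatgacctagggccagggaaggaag
C1s1: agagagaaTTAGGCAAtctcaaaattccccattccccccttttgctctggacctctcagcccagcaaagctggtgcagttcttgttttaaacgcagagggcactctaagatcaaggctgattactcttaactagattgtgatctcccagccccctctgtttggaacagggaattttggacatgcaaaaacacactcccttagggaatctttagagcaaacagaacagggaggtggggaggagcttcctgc
C3: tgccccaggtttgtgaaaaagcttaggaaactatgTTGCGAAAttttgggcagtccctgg

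The PU.1 match of C1qc spans bases -195 to -188 from the RefSeq start, and 3.20% of 32851 mouse promoters of this length hold the motif. The C/EBP matches are at -242 to -235 in C1s1 and -45 to -38 in C3, and 10.8% of the promoters hold that motif. Another RefSeq start of C1s1 lies 38 bases inside the deposited gene, and its window held no C/EBP match. C1ra held a C/EBP match at 17 to 24 after its start and a GAS motif (TTCNNNGAA, bound by STAT factors; in 8.30% of promoters) at 33 to 41. No match to the ISRE core (GAAANNGAA, in 8.56% of promoters) was found in the 5 genes. The motifs do not overlap one another in these stretches. For C1qc and C1ra the RefSeq start lies 151 and 216 bases inside the deposited gene, so the window is not that of the deposited start.

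The libraries held 14421692 to 26751729 reads assigned to genes, and each member had at least 501 and at most 49356 reads in every library. All 9 passed the minimum of 50 reads on average that the fits required, and none passed it through 1 group alone. FPKM (fragments per kilobase of gene, relative to the size of the library as scaled by the authors) compares genes per length, and on this scale mean C3 and C4b over the 16 libraries reached 289 and 256 FPKM, above 99.0% and 98.9% of the genes tested. C1qa, Serping1 and C1qb followed at 159, 144 and 139 FPKM, then C1s1 at 77.3, C1qc at 61.2 and C1ra at 45.6 FPKM. C2 was the least abundant, at 11.4 FPKM and above 69.8% of genes. Cfd exceeded them all, with a mean of 12898 FPKM.

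Several libraries stood apart before any comparison. The summed FPKM of 5 B cell markers (Cd79a, Cd79b, Ms4a1, Pax5 and Cd22) was 222 in Has2_WT1, 188 in Has2_WT2, 244 in PH20_WT1 and 91.9 in PH20_WT3, and between 1.46 and 3.81 in the other 12 libraries. Spam1 had 6, 12 and 5 reads in PH20_TG2, PH20_TG3 and PH20_TG4 and 0 in PH20_TG1. Has2 reached 3.32 FPKM in PH20_TG1 and 3.26 in PH20_TG4 against 1.86 to 3.24 FPKM in Has2_TG. It was 0.38 FPKM in PH20_TG2, 0.099 in PH20_TG3 and 0.33 to 0.90 in PH20_WT. Therefore the PH20 differences of the 9 genes are also given without PH20_TG1, and the counts of complement genes without the 4 libraries with many B cell transcripts. With PH20_TG4 left out instead, the log2 differences were -0.86 for C1qa, -0.69 for C1qb, -0.49 for C1qc and -1.03 for Serping1. The others then lay between -0.37 (C3) and 0.20 (C2). PH20_TG1 and PH20_TG4 stayed in the main fits, and no fit left out both. In 7 libraries 20416 to 21986 genes had a read, and in the other 9 libraries 15857 to 18573 genes did. The adipocyte markers Adipoq, Plin1, Lep, Fabp4, Lipe, Pparg and Cidec summed to 3428 FPKM or more in every library.

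In Has2_TG, C1q chains, both C1 proteases, C3 and the C1 inhibitor Serping1 were more abundant than in Has2_WT, while C2 and C4b differed by less than their spread. On the log2(FPKM + 0.1) scale all 9 differences were above 0, from 0.29 for C4b to 1.49 for Serping1, with a median of 0.77 against a median of -0.03 over all 12606 genes tested. Of the 9, 7 passed an unadjusted limma p under 0.05, beside 6.25% of all genes higher and 3.75% lower (limma is a linear model with variances moderated across genes). After Benjamini-Hochberg adjustment over all genes, 0 of the 9 passed (smallest limma adjusted p = 0.0842). Nothing is read from these counts because the genes were chosen on these data. Without Has2_WT1 and Has2_WT2, which leaves 2 control libraries, 5 of the 9 passed the unadjusted threshold (C1s1 and C1qa did not). In 5 of the 9, every Has2_TG library was above every Has2_WT library, beside 4.08% of all genes. In PH20_TG 0 of the 9 passed in either direction, beside 3.20% of all genes higher and 3.39% lower, and 6 of the 9 differences were below 0.

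**Figure D1:**
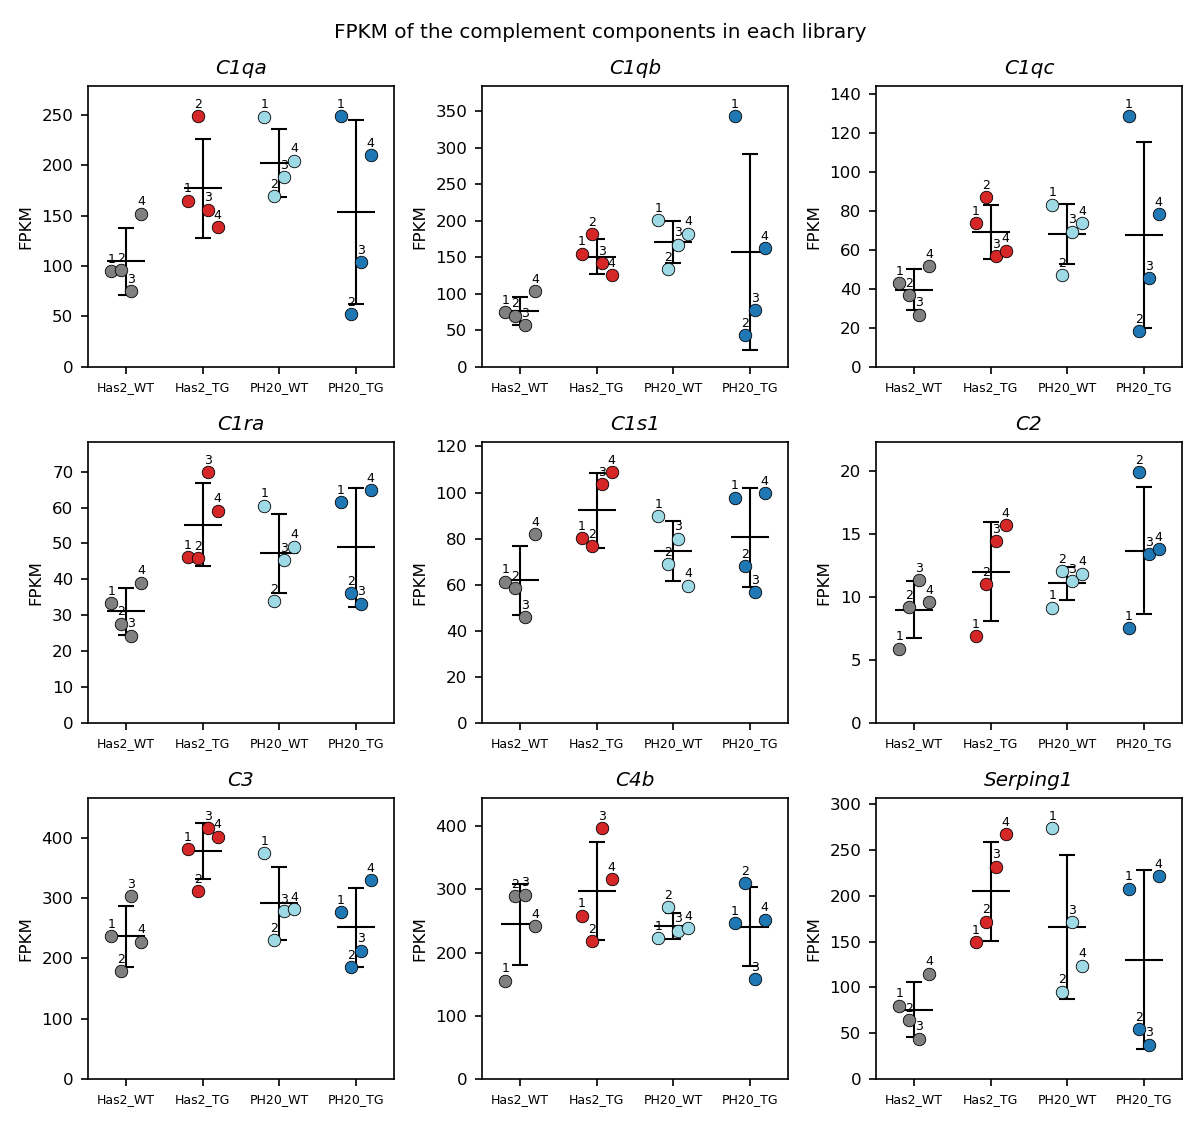
FPKM (linear axes from 0) of the 9 complement components in each of the 16 libraries; numbers are the replicate numbers of the labels, horizontal lines are group means and bars the SD (n = 4). Has2_TG lies above Has2_WT without overlap for C1qb, C1qc, C1ra, C3 and Serping1, and PH20_TG is the most dispersed group for the C1q chains.

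The recognition chains of C1q were compared first. C1qb FPKM was 75.3, 70.0, 57.0 and 104 in Has2_WT1 to Has2_WT4, and 155, 182, 142 and 126 in Has2_TG1 to Has2_TG4. The groups did not overlap, the lowest Has2_TG library lay above Has2_WT4, and the log2 difference was 1.00 (SE 0.20). C1qc FPKM was 43.1, 36.8, 26.7 and 51.8 in Has2_WT and 73.9, 87.0, 57.0 and 59.6 in Has2_TG, again without overlap, with a log2 difference of 0.83 (SE 0.22). C1qa FPKM was 94.9, 96.1, 75.3 and 152 in Has2_WT and 165, 249, 156 and 138 in Has2_TG. Here the ranges overlapped, since Has2_TG4 lay under Has2_WT4, and the log2 difference was 0.77 (SE 0.25). Without the libraries rich in B cell transcripts (Has2_WT1 and Has2_WT2), the differences were 0.96, 0.88 and 0.69 for C1qb, C1qc and C1qa.

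In the PH20 study the C1q chains spread widely within PH20_TG. C1qb FPKM was 202, 134, 168 and 182 in PH20_WT and 344, 43.1, 78.1 and 163 in PH20_TG. PH20_TG1 held the highest and PH20_TG2 the lowest C1qb of all 16 libraries, 7.98 times apart. The log2 difference was -0.53 (SE 0.56), -1.05 without PH20_TG1 and -0.05 without PH20_TG2. C1qc FPKM was 83.3, 47.1, 69.3 and 73.6 in PH20_WT and 129, 18.3, 45.4 and 78.3 in PH20_TG, a log2 difference of -0.31 (SE 0.53) that was -0.73 without PH20_TG1 and 0.20 without PH20_TG2. C1qa FPKM was 248, 169, 188 and 205 in PH20_WT and 248, 52.3, 104 and 210 in PH20_TG, a log2 difference of -0.63 (SE 0.45), -0.94 without PH20_TG1 and -0.19 without PH20_TG2. The sign of the C1qc difference thus turned with the omission of 1 library. Without PH20_TG1, C1qb passed the unadjusted limma threshold as lower and C2 as higher, each picked out after its value was seen.

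C1q chains moved together within each library. The ratio of C1qc to C1qb FPKM stayed between 0.352 and 0.582, while the summed C1q FPKM varied 6.34-fold, from 114 in PH20_TG2 to 721 in PH20_TG1. The ratio of C1qa to C1qb lay between 1.06 and 1.47 in 15 libraries and was 0.723 in PH20_TG1. In Has2_WT this ratio was 1.36 ± 0.0877 (SD, n = 4) and in Has2_TG 1.16 ± 0.141 (SD, n = 4), and the 2 ranges overlapped.

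Macrophage markers were higher alongside C1q. Of 8 markers (Adgre1, Cd68, Csf1r, Mrc1, Cd163, Lyz2, Fcgr1 and Mertk), 4 passed an unadjusted limma p under 0.05 as higher in Has2_TG (Csf1r, Mrc1, Cd163 and Adgre1), 0 as lower, with a median log2 difference of 0.67, and 0 of 8 passed in PH20_TG. Over all genes, 6.25% were higher and 3.75% lower in Has2_TG at this threshold, and 3.20% and 3.39% in PH20_TG. None of the 8 markers passed the adjustment in either study (smallest limma adjusted p = 0.377, in Has2_TG). Their summed FPKM ranged from 190 to 388 in Has2_WT, 431 to 496 in Has2_TG, 365 to 692 in PH20_WT and 168 to 1530 in PH20_TG, and none was at 0 reads in any library. The C1q sum divided by the macrophage sum was 0.685 ± 0.152 (SD, n = 4) in Has2_WT and 0.881 ± 0.128 (SD, n = 4) in Has2_TG, with overlapping ranges, and its extremes were 0.471 in PH20_TG1 and 1.04 in Has2_TG2. With the mean of the macrophage markers as a covariate, the differences of C1qb, C1qc and C1qa in Has2_TG were 0.63, 0.42 and 0.36. Every Has2_TG library had a higher macrophage sum than every Has2_WT library, while each of the 8 markers taken alone overlapped between these groups. The covariate is a mean of log2 values and not this sum. All 8 log2 differences were above 0, so the covariate goes with the genotype, to an extent that was not measured. In bulk tissue, more cells of a type and more RNA per cell cannot be told apart.

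The 5 genes whose log2 values followed the mean of the C1q chains most closely over the 16 libraries were Clec10a (Pearson r = 0.958), Cfp (0.955), Fcgr3 (0.943), Ccl9 (0.940) and Ccl6 (0.937), against a median r of -0.01 over all genes. Clec10a encodes a lectin and Fcgr3 an Fc receptor of myeloid cells, Cfp encodes properdin, and Ccl9 and Ccl6 are chemokines. These r values describe the libraries, which share tissue make-up and depth. After centring each group on its own mean, Cfp alone of these 5 was among the 5 closest genes. The others were still close, with centred r of 0.941 (Clec10a, rank 7), 0.938 (Fcgr3, rank 8), 0.941 (Ccl9, rank 6) and 0.916 (Ccl6, rank 14).

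The proteases C1r and C1s, which C1q activates, were compared next. C1ra FPKM was 33.4, 27.7, 24.3 and 39.1 in Has2_WT and 46.1, 45.9, 69.9 and 59.2 in Has2_TG, without overlap, and the log2 difference was 0.83 (SE 0.20). C1s1 FPKM was 61.3, 58.4, 46.0 and 81.8 in Has2_WT and 80.1, 76.7, 104 and 109 in Has2_TG. Has2_WT4 lay above Has2_TG1 and Has2_TG2, so the groups overlapped, and the log2 difference was 0.59 (SE 0.20). In the PH20 study C1ra FPKM was 60.5, 33.9, 45.3 and 49.1 in PH20_WT and 61.4, 36.1, 33.2 and 64.8 in PH20_TG, a log2 difference of 0.02 (SE 0.27). C1s1 FPKM was 89.8, 68.9, 79.9 and 59.6 in PH20_WT and 97.7, 68.1, 56.7 and 99.8 in PH20_TG, a log2 difference of 0.09 (SE 0.22). Without PH20_TG1 these differences were -0.11 for C1ra and -0.02 for C1s1. Both PH20 differences over all 8 libraries were under their standard errors, and PH20_TG1 and PH20_TG4 were the high libraries of both genes.

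C1ra and C1s1 kept close to each other over the libraries, at a ratio of C1s1 to C1ra between 1.21 and 2.11. Their near-identical copies C1rb and C1s2 had at most 20 reads in any library, and reads that fit both copies cannot be assigned, so the values of C1ra and C1s1 are uncertain to that extent. The same holds for C4b, whose copy C4a had 5 to 48 reads. Whether reads were counted by strand is not given in the sources used here. C1s1 overlaps the antisense gene Gm16567, which had 0 reads, and C2 overlaps Zbtb12 on the opposite strand, which had 0 to 194 reads.

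C1 inhibitor had the largest difference of the set. Serping1 FPKM was 79.9, 63.9, 43.9 and 115 in Has2_WT and 149, 172, 232 and 267 in Has2_TG. Each Has2_TG library lay above each Has2_WT library, and the means of 75.7 ± 30.1 and 205 ± 54.3 FPKM (SD, n = 4) were 2.71-fold apart. The log2 difference was 1.49 (SE 0.30) and also 1.49 without the libraries rich in B cell transcripts. In the PH20 study it was 274, 95.5, 171 and 124 FPKM in PH20_WT and 208, 54.7, 37.5 and 221 FPKM in PH20_TG. PH20_TG fell into a high and a low pair of libraries. The high pair was PH20_TG1 and PH20_TG4, which also had Has2 at the level of Has2_TG, and a link between them was not tested. The log2 difference of -0.64 (SE 0.61) became -0.997 without PH20_TG1, -1.03 without PH20_TG4 and -0.17 without PH20_TG3. Serping1 rose more than its target C1s1 from Has2_WT to Has2_TG. The ratio of Serping1 to C1s1 FPKM was 0.955 to 1.41 in Has2_WT and 1.86 to 2.46 in Has2_TG, without overlap. It was 1.39 to 3.05 in PH20_WT and 0.661 to 2.22 in PH20_TG, so a ratio at the Has2_TG level was not particular to that group.

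Progenitor and fibroblast markers were higher beside Serping1. All 8 markers (Pdgfra, Dcn, Lum, Col1a1, Col1a2, Dpp4, Pi16 and Ly6a) passed an unadjusted limma p under 0.05 as higher in Has2_TG, with a median log2 difference of 1.49, and 0 of 8 passed in PH20_TG. Over all genes, 6.25% were higher in Has2_TG at this threshold, and 3.20% were higher and 3.39% lower in PH20_TG. None of the 8 markers passed the adjustment in either study (smallest limma adjusted p = 0.0576, in Has2_TG). Their summed FPKM was 286 to 586 in Has2_WT, 829 to 1420 in Has2_TG, 375 to 1195 in PH20_WT and 301 to 1548 in PH20_TG, with none at 0 reads. PH20_TG1 and PH20_TG4, the high Serping1 libraries, had sums of 1548 and 1479, and PH20_TG2 and PH20_TG3 had 301 and 445. Serping1 FPKM divided by this sum was 0.196 ± 0.0296 (SD, n = 4) in Has2_WT and 0.193 ± 0.0259 (SD, n = 4) in Has2_TG. The sum of C1ra and C1s1 divided by it was 0.250 ± 0.0342 (SD, n = 4) in Has2_WT and 0.140 ± 0.0131 (SD, n = 4) in Has2_TG, so these proteases were lower relative to the markers in every Has2_TG library.

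With the mean of the progenitor and fibroblast markers as a covariate, the differences in Has2_TG turned for Serping1 (-0.10), C1ra (-0.17) and C1s1 (-0.39). The median over the 9 genes fell from 0.77 to 0.13 and 0 of 9 passed. The difference was 0.61 for C1qb, 0.56 for C3, 0.51 for C1qc and 0.40 for C1qa under this covariate. With 4 libraries a group, this covariate and the genotype largely coincide, since every Has2_TG library had a higher marker sum than every Has2_WT library, and the part of these cells in the result cannot be told apart from that of the genotype.

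**Figure D2:**
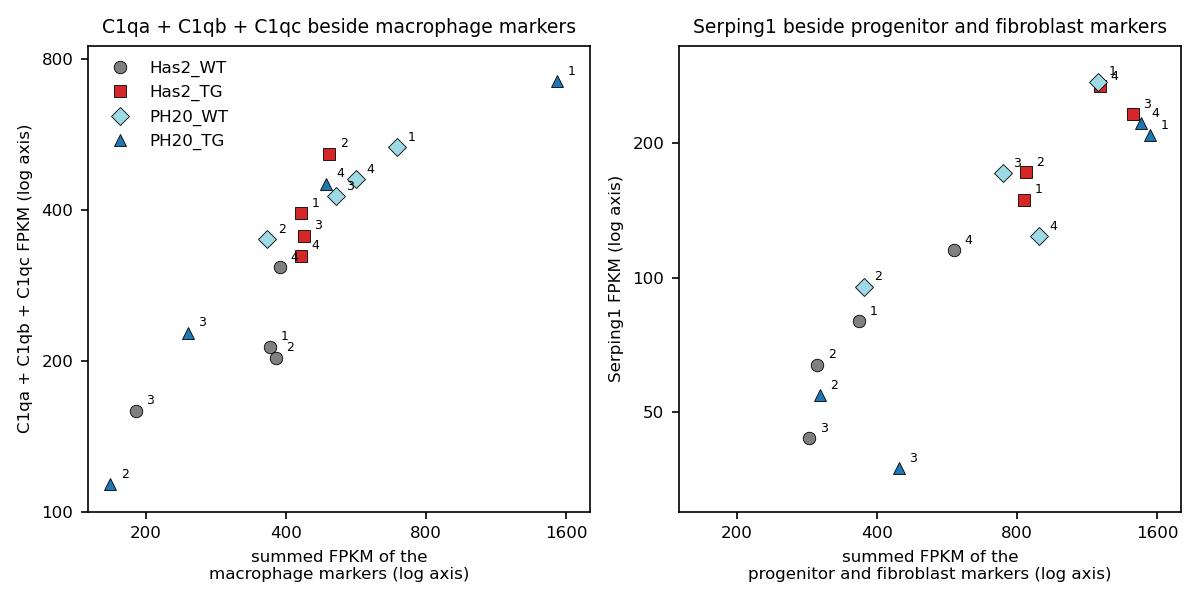
Left, summed FPKM of C1qa, C1qb and C1qc against summed FPKM of 8 macrophage markers; right, Serping1 FPKM against summed FPKM of 8 progenitor and fibroblast markers. All axes are logarithmic, each point is 1 library and numbers are replicate numbers. Serping1 in PH20_TG1 and PH20_TG4 (208 and 221 FPKM) sits at marker sums of 1548 and 1479, beside Has2_TG3 and Has2_TG4.

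The 5 genes closest to the mean of C1ra and C1s1 over the 16 libraries were Serpinf1 (r = 0.980), Ddr2 (0.962), Lima1 (0.962), Fstl1 (0.956) and Ptgfrn (0.956), against a median of -0.03 over all genes. Serpinf1 encodes pigment epithelium-derived factor, Ddr2 a collagen receptor, Lima1 an actin-binding protein, Fstl1 a secreted glycoprotein and Ptgfrn a membrane protein. Serping1 itself had r = 0.923 with C1ra and C1s1 and r = 0.803 with C1q. Serpinf1 and Ddr2 were still among the 5 closest genes after each group was centred. Centred r was 0.944 for Lima1, 0.930 for Fstl1 and 0.947 for Ptgfrn.

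Downstream of C1, the substrates split. C3 FPKM was 236, 178, 302 and 227 in Has2_WT and 381, 311, 416 and 402 in Has2_TG, without overlap, although Has2_TG2 and Has2_WT3 were close, and the log2 difference was 0.69 (SE 0.19). It was 374, 229, 279 and 282 in PH20_WT and 277, 185, 213 and 330 in PH20_TG, a log2 difference of -0.23 (SE 0.23) that was -0.29 without PH20_TG1. C4b FPKM was 155, 290, 292 and 241 in Has2_WT and 258, 218, 397 and 317 in Has2_TG, a log2 difference of 0.29 (SE 0.26) that was 0.09 without Has2_WT1. It was 223, 272, 235 and 239 in PH20_WT and 246, 310, 158 and 252 in PH20_TG, a log2 difference of -0.04 (SE 0.21) that was -0.07 without PH20_TG1. The C4b groups overlapped in both studies.

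C2, the protease subunit of the C3 convertase, was low throughout. Its FPKM was 5.90, 9.18, 11.3 and 9.57 in Has2_WT and 6.91, 11.0, 14.5 and 15.7 in Has2_TG, with a log2 difference of 0.38 (SE 0.29). That difference was 0.20 without Has2_WT1, 0.24 without Has2_TG4 and 0.63 without Has2_TG1, where C2 passed the unadjusted limma threshold. It was 9.16, 12.0, 11.3 and 11.9 in PH20_WT and 7.55, 19.9, 13.4 and 13.8 in PH20_TG, with a log2 difference of 0.23 (SE 0.27), and it was 0.48 without PH20_TG1 and 0.02 without PH20_TG2. PH20_TG2 had the highest C2 and the lowest C1q of all libraries. Over the 16 libraries the r of C2 with the C1q mean was -0.32, and -0.65 after each group was centred. In the Has2 study, however, the C2 difference was above 0 like those of the C1q chains. C4b had r = -0.10 with C1q (centred -0.27), and C3 had 0.56 (centred 0.45).

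**Figure D3:**
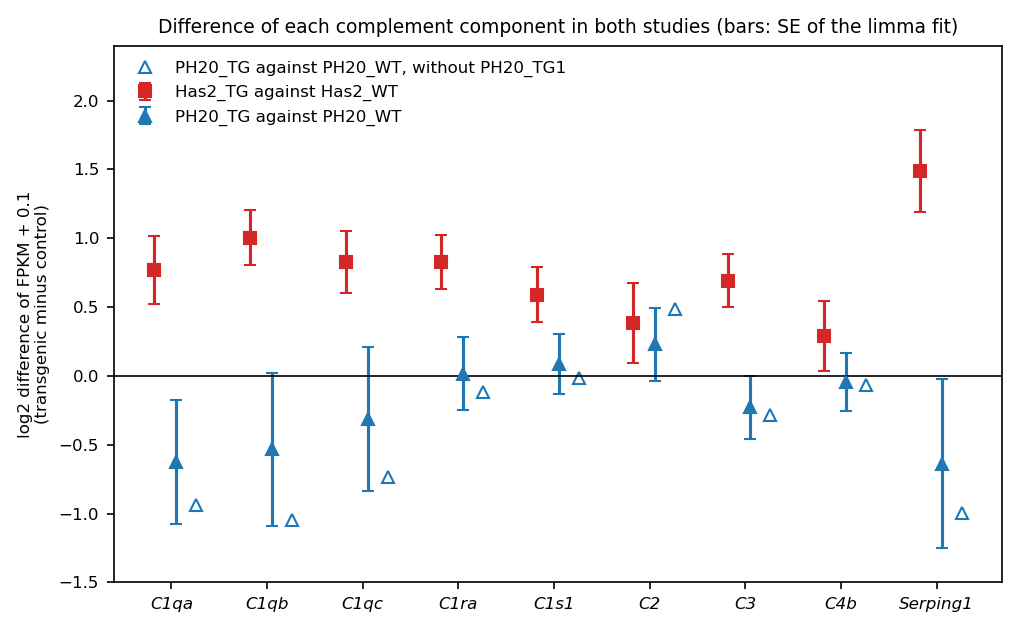
Log2 difference of FPKM + 0.1, transgenic minus control, for each complement component in the Has2 study (squares) and the PH20 study (filled triangles), with SE of the limma fit; open triangles leave out PH20_TG1. Every Has2 value is above 0, from 0.29 to 1.49, and without PH20_TG1 the C1q and Serping1 values of the PH20 study lie between -0.73 and -1.05.

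Across the 4 groups, Has2_WT had the lowest mean of 8 of the 9 genes, and Has2_TG the highest of 6. For C1qb the order was Has2_WT (76.5 FPKM), Has2_TG (151), PH20_TG (157) and PH20_WT (171), and only the step from Has2_WT to Has2_TG exceeded the larger SD of the 2 neighbours. For C1qa it was Has2_WT (105), PH20_TG (154), Has2_TG (177) and PH20_WT (203), and for C1qc Has2_WT (39.6), PH20_TG (67.7), PH20_WT (68.3) and Has2_TG (69.4), with no neighbours further apart than their larger SD. Serping1 ran from Has2_WT (75.7) through PH20_TG (130) and PH20_WT (166) to Has2_TG (205), with every step within the spread. C1ra ran from Has2_WT (31.1) to PH20_WT (47.2), a step beyond the spread, then PH20_TG (48.9) and Has2_TG (55.3). C3 ran from Has2_WT (236) through PH20_TG (251) and PH20_WT (291) to Has2_TG (377), of which the last step exceeded the spread. The steps of C1s1, C2 and C4b were all within it.

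The 2 control groups, both Apn-rtTA on doxycycline, differed. In C1qa and C1qb every PH20_WT library lay above every Has2_WT library, beside 3.20% of 12593 genes, and the other 7 genes overlapped. C1qb was 171 ± 28.7 FPKM (SD, n = 4) in PH20_WT and 151 ± 23.7 in Has2_TG. The studies were not randomised against each other, and this comparison was not tested.

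Libraries with reads on many genes fell unevenly into the groups. Among libraries with over 20000 such genes (1 Has2_TG and 2 Has2_WT), the Has2 difference was above 0 in 8 of 9 genes, with a median of 0.82, and in the others (3 and 2 libraries) it was above 0 in 9 of 9, with a median of 0.67. In the PH20 study 1 of 9 was above 0 among the former (3 PH20_TG and 1 PH20_WT, median -0.25) and 7 of 9 among the latter (1 and 3, median 0.40), where the only PH20_TG library is PH20_TG1. What sets the number of genes with a read was not tested.

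The other genes of the complement system were not among the 9 and were tested. Their list, too, was drawn up with earlier results of these data known. A list of 49 genes held 27 with enough reads in the Has2 study, of which 5 were upregulated in Has2_TG and 0 downregulated at an unadjusted limma p under 0.05, and 0 after Benjamini-Hochberg adjustment. At the same unadjusted threshold, 6.25% of the genes tested in that study were higher and 3.75% lower. Their median log2 difference was 0.16, with 15 above 0 and 12 below, against -0.03 over all genes. Over all genes, 13 passed the adjustment in Has2_TG and 0 in PH20_TG, where 401 genes were higher and 425 lower at the unadjusted threshold. Of the 27 genes, 3 (Cfp, C7 and C5ar1) did not overlap between the groups, all of them higher in Has2_TG, where 4.08% of all genes lay above Has2_WT without overlap. Without Has2_WT1 and Has2_WT2, 7 of the other complement genes passed as higher.

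Of the alternative pathway (Cfd, Cfb and Cfp, all tested), Cfp was upregulated in Has2_TG. Cfp encodes properdin, which stabilises the C3 convertase, and its FPKM was 30.1, 31.6, 22.8 and 33.3 in Has2_WT and 47.8, 55.4, 59.5 and 43.3 in Has2_TG, with a log2 difference of 0.81 (SE 0.17, limma adjusted p = 0.0842). Cfd, by contrast, was 5221, 12119, 18645 and 8985 FPKM in Has2_WT and 13196, 17652, 9761 and 12603 in Has2_TG, a log2 difference of 0.36 (SE 0.48) within the spread. Cfb, which supplies the protease of that convertase, was at 0.25 to 2.35 FPKM and differed by -0.15 (SE 0.44). In the PH20 study Cfp ranged from 20.0 FPKM in PH20_TG2 to 87.7 in PH20_TG1, the same extremes as C1qb, and neither Cfp nor Cfd passed.

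In the lectin pathway, 2 of 9 genes were tested. Fcna, the gene of the recognition molecule ficolin A, had 19.5, 10.9, 11.5 and 24.0 FPKM in Has2_WT and 27.2, 47.4, 35.3 and 15.5 in Has2_TG, an upregulation of 0.89 on the log2 scale (SE 0.36, limma adjusted p = 0.449). The groups overlapped, the call was lost without any 1 of Has2_WT2, Has2_WT3, Has2_TG1, Has2_TG2 and Has2_TG3, where the difference was 0.66 to 0.93, and the difference was 0.03 with the macrophage covariate. The Fcna call was also lost with the replicate number as a block and in the fit of all 16 libraries, where the difference stayed at 0.89. Colec12, a scavenger collectin, differed by 0.62 (SE 0.28). The proteases Masp1 and Masp2 and the lectins Mbl1 and Mbl2 had too few reads to be tested.

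Among terminal components (3 of 7 tested), C7, a subunit of the membrane attack complex, had the largest difference above 0 among the complement genes tested. Its FPKM was 14.9, 10.7, 8.76 and 28.9 in Has2_WT and 45.4, 33.8, 103 and 110 in Has2_TG, without overlap, a log2 difference of 2.18 (SE 0.46, limma adjusted p = 0.0906). With the progenitor and fibroblast covariate the C7 difference was -0.46. C6 (0.35, SE 0.24) and C8g (-0.54, SE 0.31) did not pass, and Hc, C8a, C8b and C9 had at most 30 reads in any library.

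Of 11 receptor genes, all tested in the Has2 study, the anaphylatoxin receptors C5ar1 and C3ar1 were upregulated. C5ar1 FPKM was 3.63, 2.50, 2.54 and 5.83 in Has2_WT and 9.35, 7.88, 10.3 and 6.05 in Has2_TG, a log2 difference of 1.25 (SE 0.29, limma adjusted p = 0.119). C3ar1 FPKM was 1.61, 1.45, 1.37 and 3.70 in Has2_WT and 6.60, 3.69, 7.41 and 3.48 in Has2_TG, a log2 difference of 1.38 (SE 0.37, limma adjusted p = 0.189). C5ar1 was higher in 4 of 4 Has2_TG libraries than in any control, and C3ar1 in 2 of 4. With the macrophage covariate the differences were 0.58 and 0.71 and neither passed. The most abundant receptor genes were C1qbp (-0.32, SE 0.15) and Itgb2 (-0.21, SE 0.43), neither of which passed. The complement receptor gene Cr2 differed by -2.80 (SE 1.34), beside the B cell markers.

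Of 15 regulators, 7 were tested and 0 passed in either direction in Has2_TG. The membrane regulator Cd59a (0.23, SE 0.23) and clusterin (Clu, -1.04, SE 0.51) were the most abundant and did not pass. Clu FPKM was 78.2, 59.6, 15.8 and 15.8 in Has2_WT, high in the libraries with many B cell transcripts.

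With the progenitor and fibroblast covariate, 4 of the 5 upregulated genes differed by 0.06 to 0.46, none of the 5 passed, and C7 turned to -0.46. With the macrophage covariate Cfp (0.49) and C7 (1.48) still passed and the other 3 did not. The markers of both covariates were higher in Has2_TG, so these values do not tell the part of the cells from that of the genotype.

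In the PH20 study 25 of the 49 genes were tested, and 1 was upregulated and 2 downregulated at the unadjusted threshold, which 3.20% and 3.39% of all genes passed in these directions, and 0 passed after adjustment. C1rl, a C1r-like protease gene and the only tested paralog of the members, was 2.26, 6.40, 4.60 and 5.82 FPKM in PH20_WT and 6.998, 8.08, 9.08 and 6.44 in PH20_TG, a log2 difference of 0.76 (SE 0.31, limma adjusted p = 0.710). Vtn, encoding vitronectin, was 14.3, 11.8, 11.5 and 9.39 FPKM in PH20_WT and 6.64, 9.19, 7.12 and 8.85 in PH20_TG, a log2 difference of -0.56 (SE 0.17, limma adjusted p = 0.664). Clu was 88.7, 19.5, 46.5 and 21.1 FPKM in PH20_WT and 15.7, 17.6, 13.6 and 23.7 in PH20_TG, a log2 difference of -1.06 (SE 0.46, limma adjusted p = 0.731). None of these 3 passed without the libraries rich in B cell transcripts, where the differences were 0.31, -0.41 and -0.23. The call of Clu was also lost with the replicate number as a block, in the fit of all 16 libraries, and without any 1 of PH20_WT1, PH20_WT3, PH20_TG1, PH20_TG2 and PH20_TG3 (-1.07 to -0.63), and that of C1rl without any 1 of PH20_WT3, PH20_TG1, PH20_TG2 and PH20_TG3 (0.67 to 0.79), while without PH20_WT1 the C1rl difference passed at 0.44.

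**Figure D4:**
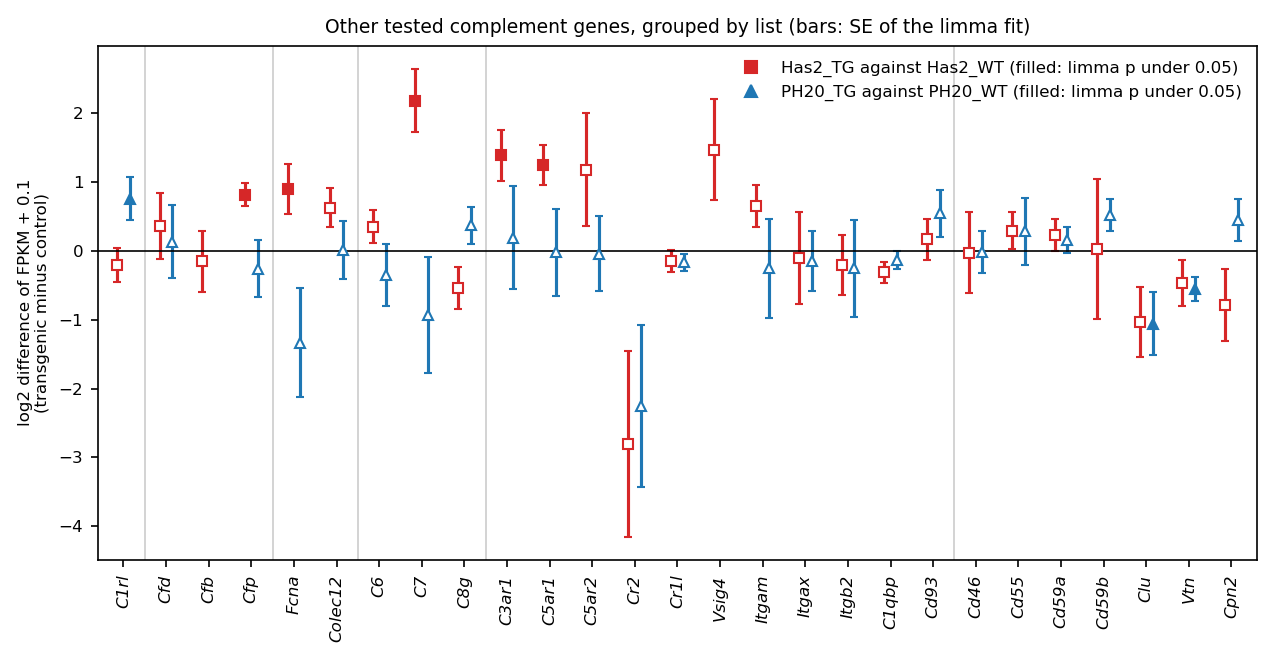
Log2 difference of FPKM + 0.1, transgenic minus control, with SE of the limma fit, for the other complement genes with enough reads; grey lines separate paralogs, alternative, lectin and terminal pathway, receptors and regulators, and filled symbols passed an unadjusted limma p under 0.05. C7 is the highest filled square at 2.18, and C1rl, Clu and Vtn are the filled triangles of the PH20 study.

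The difference between the studies was tested in 1 fit of all 16 libraries. Of 26 other complement genes, the Has2 difference exceeded the PH20 difference in 3 (C7, Fcna and Cfp) and was below it in 2 (C1rl and C8g) at an unadjusted limma p under 0.05, beside 4.03% and 3.68% of all genes, and 0 passed the adjustment (smallest limma adjusted p = 0.598). Without the 4 libraries rich in B cell transcripts, 0 of the 26 passed in either direction.

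Other cell type markers were set beside these values. The counts are at an unadjusted limma p under 0.05, which 6.25% of all genes passed as higher and 3.75% as lower in Has2_TG. In PH20_TG these shares were 3.20% and 3.39%, and none of these markers passed the adjustment in either study. In Has2_TG, 0 of 7 adipocyte, 0 of 6 skeletal muscle, 0 of 1 tested neutrophil and 0 of 2 tested lymph node stroma markers passed, and 2 of 5 B cell and 2 of 5 T cell markers were lower. In PH20_TG, 3 of 5 B cell, 3 of 5 T cell and 6 of 6 skeletal muscle markers were lower, and 0 of 7 adipocyte, 0 of 1 neutrophil and 0 of 3 lymph node stroma markers passed. Of the neutrophil markers Ly6g had 0 reads in every library, and Cd22, Pax5 and Ms4a1 had 0 reads in 3 libraries each. Summed skeletal muscle markers ranged from 7.92 to 792 FPKM across libraries. Of 12 interferon-stimulated genes, 2 (Ifit3 and Irf7) were higher in Has2_TG and 2 (Tap1 and Ifit1) lower in PH20_TG, with summed FPKM between 149 and 246 in all libraries. The part of these cells in the complement values was not tested.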

How the data were processed

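Bulk RNA-seq of iWAT (16 libraries) was taken from 1 deposited table of FPKM per gene and library. Per the labels and the study's methods, the authors aligned reads to GRCm38 (GENCODE annotation) with STAR (version 2.7.9a), counted reads per gene with STAR, and tested them with DESeq2; the deposited FPKM values carry the authors' scaling between libraries, with a library total 0.886 to 1.14 times the sum of reads. FPKM multiplied by gene length and this total gave whole reads in 100% of values (tolerance 0.05), which served for filters and depth.

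The 9 members, the lists and the tests were chosen with earlier results of these data known. Differences were fitted with limma (version 3.58.1, R 4.3.3; trended variance, two-sided) on log2(FPKM + 0.1) for genes whose reads averaged 50 or more in the libraries fitted; each study had its own fit of 8 libraries, and the difference between studies used all 16. A gene was called at an unadjusted p under 0.05, as in the study, and Benjamini-Hochberg values over all genes tested are given. Fold differences of low genes are understated by the added 0.1. The Has2 fit was also run on simulated independent counts with the same dispersion for every gene. These lack the shared tissue make-up of the libraries, and nothing is read from that run. All 9 members are named; of the other complement genes, those called and the 2 most abundant of each list; and the 5 genes most correlated with C1q and with C1ra and C1s1. Lists were other complement genes (paralogs, alternative, lectin, terminal, receptors, regulators), macrophage, progenitor and fibroblast, adipocyte, B cell, T cell, lymph node stroma, skeletal muscle, neutrophil and interferon-stimulated genes; 2 genes are not reported here and entered no list or sum. Of 120 pairs of libraries none agreed within counting noise (smallest chi-square per degree of freedom 28.7). Alternatives covered pseudocount, filters, scaling, weights, pooling, the replicate number, marker covariates and each library left out. The p-values set each group difference against the spread between libraries, with variances moderated across genes. Promoters came from RefSeq; proteins were not used here.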

Additional observations from a re-analysis of the deposited data

Results flagged for a closer look

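In 5 other complement genes the Has2 and PH20 differences were apart at an unadjusted limma p under 0.05, and none passed the adjustment. Over all genes, 4.03% were higher and 3.68% lower at this threshold. The Has2 difference minus the PH20 difference, on the log2(FPKM + 0.1) scale, was 3.11 for C7, 2.23 for Fcna, 1.07 for Cfp, -0.97 for C1rl and -0.90 for C8g, with limma adjusted p between 0.598 and 0.641. C7 passed the unadjusted threshold in every fit that left out 1 library. No group of 4 libraries of a member held a library far enough from the others to be flagged. Fcna, Cfp, C1rl and C8g did not pass in at least 1 such fit, and none of the 5 passed without the 4 libraries rich in B cell transcripts, where the differences were 2.30, 1.76, 0.98, -0.44 and -0.47 in the order above.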

How the results depend on the processing

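With pseudocount 1, a mean FPKM of at least 1, the minimum over all 16 libraries, median-of-ratios scaling or voom weights, every count kept within 1.5 times of the reported one. Quantile normalization, no minimum of reads and all 16 libraries in one fit each made 1 of the other complement genes lower in Has2_TG, where 0 were reported. In PH20_TG, 1 was lower without a variance trend and 0 in the fit of all 16. With the macrophage covariate 3 members and 2 other genes were higher in Has2_TG and 1 other gene lower in PH20_TG. With the progenitor and fibroblast covariate 0 members passed, 1 other gene was higher and 2 lower in Has2_TG, 3 others were higher in PH20_TG, and the Has2_TG differences of C1ra (-0.17), C1s1 (-0.39), Serping1 (-0.10) and C7 (-0.46) turned. With the B cell covariate 0 others passed in PH20_TG in either direction. The next alternatives were chosen after seeing the data. With the number of genes with a read as covariate, 0 others were higher in PH20_TG and 1 in the difference between the studies. Without the libraries rich in B cell transcripts 0 others passed in PH20_TG or in the difference, in either direction. The cause of these shifts was not tested.

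Leaving out 1 library at a time, counts of other complement genes ranged from 4 to 8 higher and 0 to 3 lower in Has2_TG, 0 to 2 higher and 1 to 3 lower in PH20_TG, and 1 to 6 higher and 0 to 2 lower in the difference; members ranged from 7 to 8 higher in Has2_TG and 0 to 1 in each direction in PH20_TG. Lower calls in Has2_TG appeared without Has2_WT3 (2), Has2_WT4 (3) or Has2_TG1 (1). The 8 in Has2_TG came without Has2_WT4 and the 6 in the difference without PH20_TG1, and 1 was left without any 1 of Has2_WT3, Has2_TG2, Has2_TG3, PH20_WT1, PH20_TG2 and PH20_TG3.

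With the replicate number as a block, 2 other genes were higher and 1 lower in PH20_TG. The count of 7 members in Has2_TG was unchanged, and nothing is read from it because the members were chosen on these data. Over all genes, the block moved the unadjusted calls in PH20_TG from 401 to 633 higher and from 425 to 669 lower, and in Has2_TG from 788 to 750 higher and from 473 to 403 lower. Deviations from the group means correlated at 0.34 and 0.42 between PH20 libraries numbered 1 and 2, at -0.03 and -0.04 between those numbered 3 and 4, and at -0.18 to 0.13 in the Has2 study. Not every pair deviated together, so the numbers were not taken to pair the libraries.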
